A study of Rattus norvegicus with 12 samples.

Results

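Immediate early transcription factors were examined in the uteri of ovariectomized rats given estradiol, 3-methylcholanthrene or both. They were defined by name as 10 genes (Fos, Fosb, Jun, Junb, Egr1, Atf3, Klf4, Klf2, Klf6 and Myc), each read from its brightest probe set annotated with that symbol alone. Of the 10 genes, 9 had such a probe set among the 14506 genes measured, and Fosb had none. All 9 were bright enough to be among the 10154 genes tested, although Fos passed that limit through the rats given estradiol.

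All 12 animals were ovariectomized young adult Lewis females, so every group, the controls included, lacked ovarian hormone. They formed 4 groups of 3 rats. One received the vehicle DMSO, another 17β-estradiol at a daily 4 µg/kg (the E2 group), another a daily 15 mg/kg of 3-methylcholanthrene (3-MC), and the last the combination (E2+3-MC). Dosing ran for 3 days, and whole uteri were taken 24 h after the last dose, with 1 array hybridised per rat. 3-MC is a polycyclic aromatic hydrocarbon and a ligand of the aryl hydrocarbon receptor.

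Immediate early genes are transcribed within minutes of a stimulus, without new protein synthesis, and their messages are usually short-lived. FOS, JUN and ATF3 family proteins pair through leucine zippers to form AP-1 and related dimers, EGR1 and the Krüppel-like factors bind GC-rich DNA through zinc fingers, and MYC pairs with MAX at E boxes. In the uterus, estradiol is known to induce several of these genes rapidly after a single dose. The uteri here were taken a day after the last of several doses, so the values describe levels after repeated dosing and not that first response.

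RefSeq promoter windows of the rat build GRCr8 were at hand for 5 of the 10 members (Fosb, Junb, Egr1, Klf4 and Klf6) among 33469 windows in all. Those of Junb, which rose with estradiol, and Klf6, which did not pass the test in that comparison, are shown as 1 example of each, and the other 3 are not shown. The windows are the 250 bases before the annotated start, Junb at chr19:40080876-40081125 on the plus strand and Klf6 at chr17:69458479-69458728 on the minus strand. Capitals mark matches, on either strand, to the AP-1 site TGANTCA, the CREB core TGACG, the CArG box that binds serum response factor, or the TATA box TATAAA.
Junb: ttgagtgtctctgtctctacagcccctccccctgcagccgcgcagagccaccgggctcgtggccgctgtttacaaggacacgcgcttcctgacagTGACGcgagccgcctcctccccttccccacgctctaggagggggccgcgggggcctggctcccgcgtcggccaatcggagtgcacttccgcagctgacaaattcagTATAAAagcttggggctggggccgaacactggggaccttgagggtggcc
Klf6: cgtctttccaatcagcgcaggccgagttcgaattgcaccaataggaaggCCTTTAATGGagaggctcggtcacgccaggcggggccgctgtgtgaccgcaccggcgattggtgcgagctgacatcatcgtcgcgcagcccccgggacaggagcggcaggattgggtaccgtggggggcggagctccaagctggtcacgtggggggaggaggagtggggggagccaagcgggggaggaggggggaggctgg
The Junb window held 1 CREB core at position -155 from the annotated start and a TATA box at -49. The Klf6 window held 1 CArG box at position -201, and neither window held the AP-1 site. Over all windows of this length, 6.34% held the AP-1 site, 18.2% the CREB core, 1.50% the CArG box and 12.9% the TATA box. The aryl hydrocarbon receptor core GCGTG occurred at 2 places in the Junb window and 1 in the Klf6 window, against 25.9% of all windows with at least 1. The estrogen response core GGTCA occurred at 3 places in the Klf6 window and at none in the Junb window, against 35.4% of all windows. These matches describe letters in a window and not occupied sites.

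The arrays had median intensities of 86.3 to 124, and the array of vehicle rat 1 had a wider spread of values than the rest, since its log2 intensities had an interquartile range of 3.13 where the other arrays had 2.16 to 2.72. Levels below are the deposited intensities, and differences are of log2(intensity + 16), tested with limma over all 12 arrays and called at a Benjamini-Hochberg adjusted p under 0.05. The markers of uterine tissue were present, since the 13 epithelial, 12 stromal and 10 smooth muscle markers with a probe set all passed the limit on dim genes, a mean log2 level of 6.44. Counts of members, pathway genes and cell markers given for E2 against vehicle are also given without vehicle rat 1 where they move by over 1.5 times.

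Estradiol given alone raised Fos, Klf4 and Junb and lowered Klf2 relative to vehicle. The other 5 measured members, Jun, Egr1, Atf3, Klf6 and Myc, did not pass the test. Of all genes tested, 8.70% were called higher and 9.44% lower, beside 3 and 1 of the 9 members. The groups did not overlap for the same 4 members, beside 10.1% of all genes upwards and 17.1% downwards. The median difference of the members was 0.29 on the log2 scale, beside -0.11 over all genes tested. After median centring, which moves the median of all genes to 0.05, 1535 genes were called higher and 801 lower instead of 883 and 959, and the same 4 members were called.

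**Figure D1:**
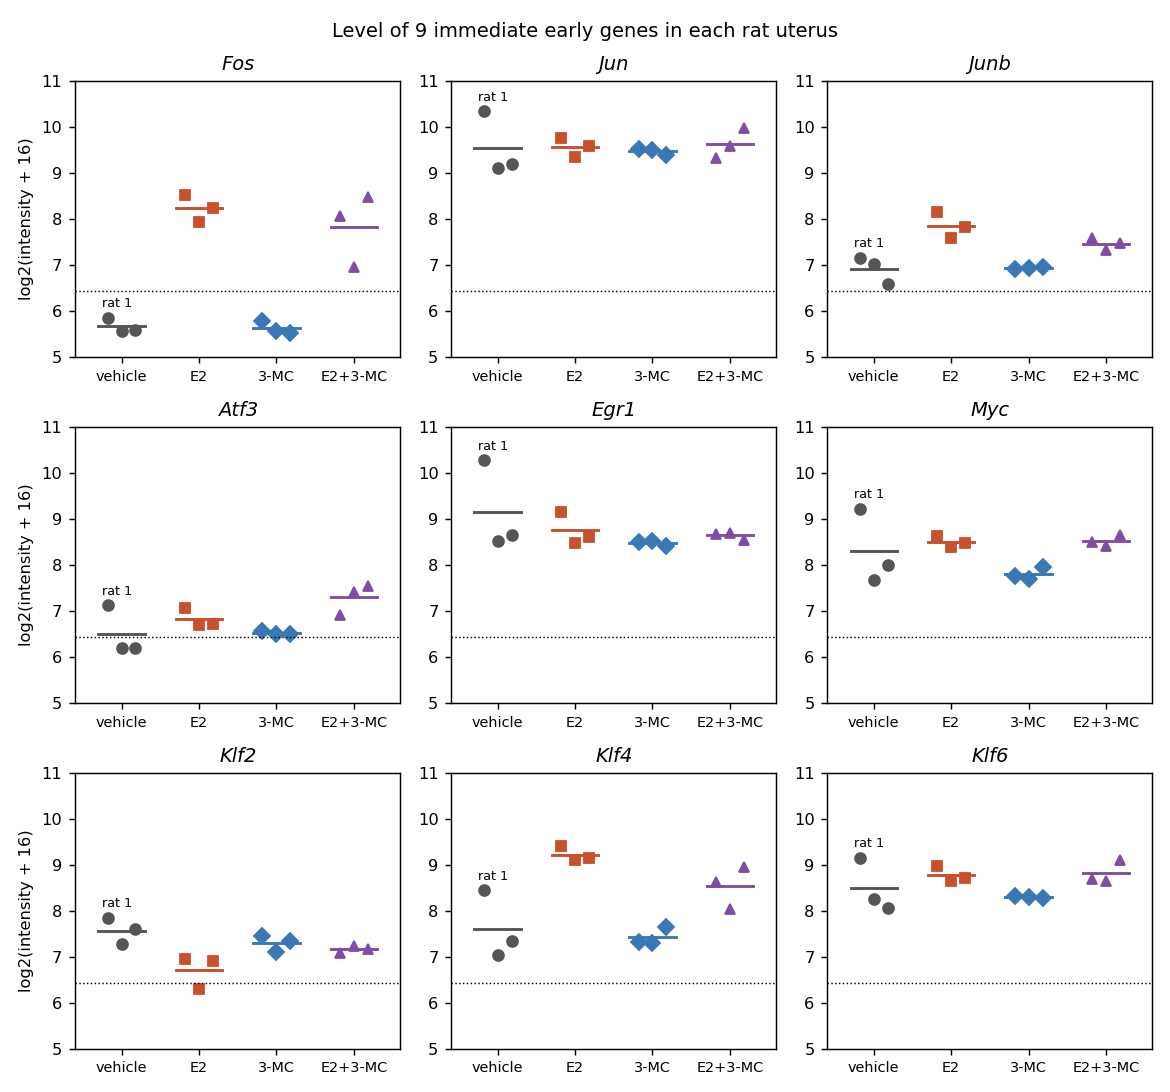
Level of the 9 measured immediate early genes, as log2(intensity + 16), in the uterus of each rat (points, 3 per group) with the group mean (bar) for the vehicle, E2, 3-MC and E2+3-MC groups. Fos is low in all 6 rats without estradiol and higher in all 6 with it, and vehicle rat 1 lies above the other vehicle rats for all 9 genes.

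Fos, the AP-1 subunit that cannot pair with itself and needs a JUN partner to bind DNA, had the widest range of group means among the members. Its intensity (probe set 10886031) was 42, 31.2 and 32.3 in the vehicle rats and 354, 228 and 289 in the E2 rats. It was 39.2, 31.2 and 30.3 in the 3-MC rats and 252, 108 and 339 in the E2+3-MC rats. All 6 rats given estradiol stood above all 6 rats without it, and the latter all lay below the limit for dim probe sets, so the size of the fold rests on levels under that limit. E2+3-MC rat 2 was the lowest of the rats given estradiol. The difference of E2 from vehicle was 2.57 ± 0.29 (SE) on the log2(intensity + 16) scale, 5.93-fold, with a limma adjusted p of 8.36e-06. With an offset of 1 in place of 16 it was 3.00, and with an offset of 64 it was 1.82.

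Junb (probe set 10806585), a JUN family subunit that pairs with FOS proteins, moved with Fos to a smaller degree. Its intensity was 127, 114 and 81.1 in the vehicle rats and 269.8, 177 and 212 in the E2 rats. The 3-MC rats had 104, 106 and 108, and the E2+3-MC rats had 176, 147 and 163. Again no rat given estradiol fell among those without it. E2 exceeded vehicle by 0.93 ± 0.20 on the log2 scale, 1.91-fold (limma adjusted p = 0.00354).

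Jun (probe set 10878112), the main partner of FOS in AP-1, showed no such separation. Its intensity was 1278, 533 and 574 in the vehicle rats, 853, 632 and 749.7 in the E2 rats, 722, 711 and 657 in the 3-MC rats and 627, 753 and 995 in the E2+3-MC rats. The groups overlapped throughout, and the highest value belonged to vehicle rat 1. The E2 difference of 0.01 had a 95% confidence interval from -0.57 to 0.59 (limma adjusted p = 0.982), and after quantile normalization its sign turned, to -0.08. Changes within that interval were not excluded.

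Atf3 (probe set 10770710), a stress-induced repressor that pairs with JUN proteins, had intensities of 124, 56.9 and 57.4 with vehicle and 118, 87.7 and 88.5 with E2. The 3-MC rats had 78.7, 75.3 and 75.4 and the E2+3-MC rats 106, 155 and 171. Vehicle rats 2 and 3 were the lowest of all 12, while vehicle rat 1 exceeded every E2 rat. The E2 difference was 0.32 ± 0.25 with a limma adjusted p of 0.397.

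Klf4 (probe set 10876838) encodes a Krüppel-like factor of differentiating epithelia. Its intensity was 330.2, 115 and 146 in the vehicle rats and 659.7, 533 and 547 in the E2 rats. In the 3-MC rats it was 142, 142 and 184, and in the E2+3-MC rats 378, 248 and 477. Every E2 rat stood above every other rat, and E2+3-MC rat 2 lay below vehicle rat 1. The E2 difference was 1.61 ± 0.30, 3.06-fold (limma adjusted p = 0.00119). Klf4 was the one member with another probe set (10873814), which was dimmer, at 79.2, 45.6 and 26.2 with vehicle and 268, 288 and 265 with E2, and its difference was 2.20 ± 0.32 (limma adjusted p = 0.000119).

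Klf2 (probe set 10790670), a Krüppel-like factor best known from endothelium under flow, was the member that fell. Its intensity was 214, 138 and 178 in the vehicle rats and 107, 63.4 and 103 in the E2 rats. It was 157, 121 and 147 in the 3-MC rats and 119, 135 and 127 in the E2+3-MC rats. The 3 E2 rats were the lowest of all 12, with E2 rat 2 lowest of these. Klf2 fell by 0.85 on the log2 scale (SE 0.21, limma adjusted p = 0.0101). Without E2 rat 2 the difference was -0.65 and was no longer called (limma adjusted p = 0.0698), and it was also lost when the E2 and vehicle arrays were fitted alone (limma adjusted p = 0.0661).

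Klf6 (probe set 10799291), a broadly expressed Krüppel-like factor, had intensities of 550.3, 291 and 249 with vehicle, 488, 386 and 402 with E2, 302, 297 and 294 with 3-MC and 395, 386 and 538 with both. Myc (probe set 10896814), which drives growth and ribosome genes, had 581, 188 and 240.4 with vehicle, 380, 320.4 and 342 with E2, 199.8, 192 and 231 with 3-MC and 346, 327 and 383 with both. For both genes vehicle rat 1 was the highest of all 12 rats and the other vehicle rats lay below every rat given estradiol. Egr1 (probe set 10800919), a zinc finger factor induced by serum and growth factors, had 1215, 348 and 382 with vehicle, 554, 342 and 374 with E2, 347, 353 and 323 with 3-MC and 395, 399 and 358 with both. Apart from vehicle rat 1 and E2 rat 1, all its values lay between 323 and 399. None of these 3 genes was called in E2 against vehicle, where Klf6 differed by 0.29 ± 0.24, Myc by 0.20 ± 0.29 and Egr1 by -0.39 ± 0.34, with limma adjusted p values of 0.436, 0.66 and 0.454.

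Vehicle rat 1 exceeded the mean of vehicle rats 2 and 3 for all 9 members, by 1.69 on the log2 scale for Egr1 (3.24-fold), 1.39 for Myc, 1.25 for Klf4, 1.19 for Jun, 0.99 for Klf6, 0.93 for Atf3, 0.41 for Klf2, 0.35 for Junb and 0.28 for Fos. That array was high for genes in general, with a median gap of 0.62 over the 10154 genes tested and a gap above 1 for 20.3% of them, beside 4 of the 9 members. Quantile normalization, which gives every array the same distribution, brought the median gap to 0.11 and left 1.36% of genes and none of the members above 1. On that scale the gap was 0.90 for Egr1, 0.88 for Atf3, 0.77 for Klf4 and 0.70 for Myc, and 0.02 for Klf2. The same rat had a summed intensity of 15413 over 9 adipocyte markers, where vehicle rats 2 and 3 had 2372 and 3358 and the other groups 936 to 7792. Its summed intensity over 9 heat shock genes, which respond to cell stress, was 14789 against 7574 and 7736. That over 13 macrophage markers was 9739 against 2910 and 3161. As quantile-normalized log2 means centred per gene, the heat shock genes stood at 0.18 in that rat against -0.02 and 0.09. On the same scale the macrophage markers stood at 0.18 against -0.75 and -0.53, and the adipocyte markers at 1.84 against -0.13 and 0.42. The part of these markers in the values of vehicle rat 1 was not tested.

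**Figure D2:**
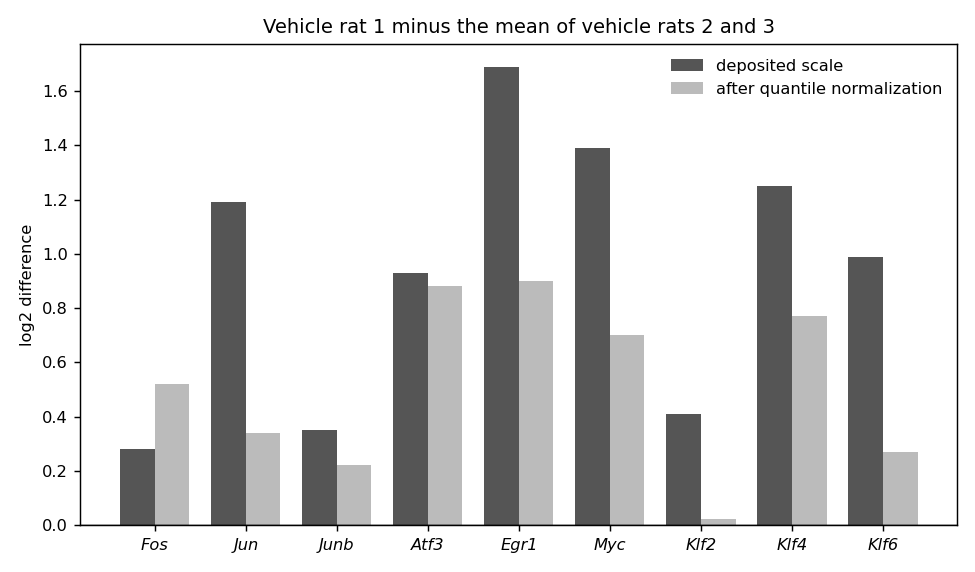
Level of each member in vehicle rat 1 minus the mean of vehicle rats 2 and 3, as a log2 difference, with the deposited values (dark bars) and after quantile normalization (light bars). The gap is largest for Egr1 on the deposited scale, at 1.69, and no gap exceeds 1 after quantile normalization.

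Without vehicle rat 1, 3 more members were called higher in E2 than in vehicle. Atf3 then differed by 0.63 (limma adjusted p = 0.0119), Klf6 by 0.62 (limma adjusted p = 0.00941) and Myc by 0.67 (limma adjusted p = 0.00423). These made 7 called members, 6 higher and Klf2 lower, while the count over all genes went from 1842 to 3538. With quantile normalization as well, these 3 genes were again called, with differences of 0.81 for Atf3, 0.40 for Klf6 and 0.50 for Myc. Jun (0.41) and Egr1 (0.18) were still not called without that rat, with limma adjusted p values of 0.0975 and 0.481. The direction of Egr1 turned from negative to positive, and on the quantile scale without the rat it was -0.08.

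In whole uterus, fewer cells of a type and less RNA per cell cannot be told apart. Of 13 epithelial markers, 8 rose with E2 and 1 fell. The largest rises were those of the epithelial transcription factor Elf3 (3.53 on the log2 scale) and the keratins Krt8 (2.93), Krt19 (2.65) and Krt7 (2.03). Mean log2 levels were lower with E2 than with vehicle for Foxa2 (6.50 against 7.32), Cldn3 (8.51 against 9.12) and Cldn4 (7.71 against 7.98). The summed intensity of the 13 markers was 16481 to 19701 in the E2 rats and 4599 to 9786 in the vehicle rats. It was 4280 to 5626 in the 3-MC rats and 9119 to 17456 in the E2+3-MC rats. E2+3-MC rat 2, the lowest for Fos and Klf4 among the rats given estradiol, was also the lowest of them for these markers. The part of the epithelial markers in the Fos and Klf4 differences was not tested.

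Of 12 endothelial markers, 8 fell with E2 and none rose, among them the tight junction gene Cldn5 (-1.12), the junctional cadherin Cdh5 (-1.02), the VEGF receptor Kdr (-1.01) and the sialomucin Emcn (-1.01). Their summed intensity was 2390 to 2681 in the E2 rats, 2826 to 2990 in the E2+3-MC rats, 3564 to 3975 in the 3-MC rats and 3571 to 6332 in the vehicle rats. No rat given estradiol overlapped a rat without it. The part of these markers in the Klf2 difference was not tested. With E2+3-MC against 3-MC none of the 12 was called, and 6 fell without vehicle rat 1 and 7 after quantile normalization. Over all genes that comparison called 834 with all 12 rats and 2176 without vehicle rat 1.

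Markers of other cell types were also called with E2 against vehicle. Among 12 stromal markers 1 rose and 1 fell, and among 10 smooth muscle markers 2 rose and 1 fell. Without vehicle rat 1 the stromal counts were 2 higher and 1 lower, and the muscle counts 4 and 1. After quantile normalization the stromal counts were 1 higher and 5 lower, and the muscle counts 3 and 2. Of 12 macrophage markers 6 rose, or all 12 without vehicle rat 1, with summed intensities of 7616 to 11001 in the E2 rats and 2910 to 9739 in the vehicle rats. Of 4 neutrophil markers 3 rose, each below the limit for dim genes in the groups without estradiol, and 1 fell. All 3 tested blood markers fell (median -2.06), with summed intensities over the 5 measured of 882 to 2592 in the E2 rats and 4257 to 8757 in the vehicle rats. Of 7 tested adipocyte markers 5 fell (median -1.71), with summed intensities over the 9 measured of 2648 to 2908 in the E2 rats and 2372 to 15413 in the vehicle rats. Adipoq went the other way without a call, with a mean log2 level of 9.44 with vehicle and 10.93 with E2. Without vehicle rat 1 the adipocyte median was -1.01, and 1 marker was called higher and 4 lower. The part of these cell types in the members' differences was not tested.

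**Figure D3:**
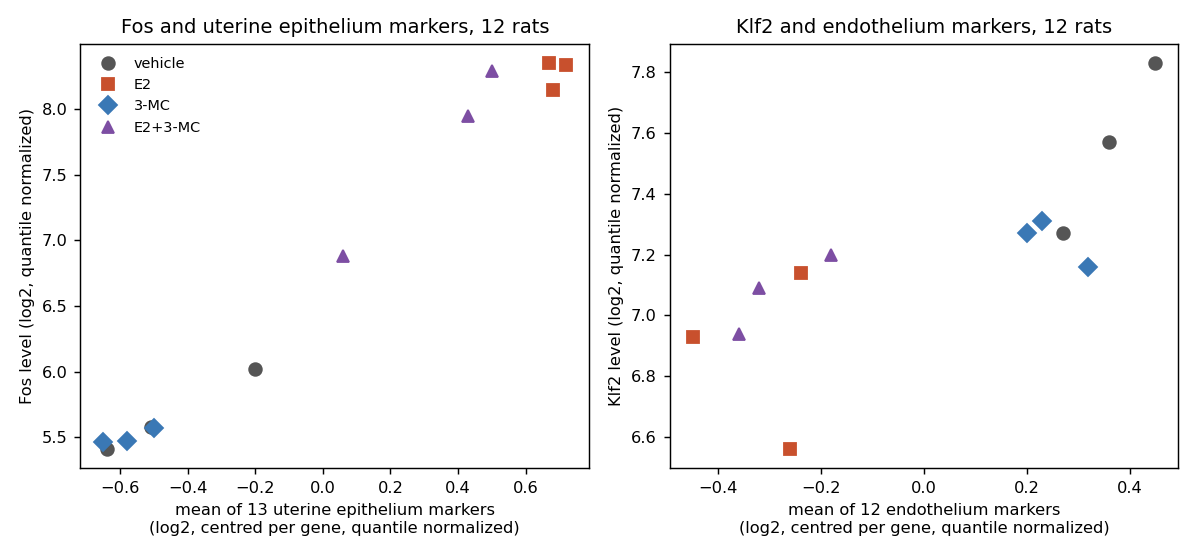
Left, the Fos level of each rat against the mean of 13 uterine epithelial markers, and right, the Klf2 level against the mean of 12 endothelial markers, all on the quantile-normalized log2 scale with markers centred per gene, for 12 rats in 4 groups. The rats given estradiol lie at high epithelial and low endothelial marker means, and E2+3-MC rat 2 lies between the other rats with and without estradiol on the left.

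When estradiol was given with 3-MC and compared with 3-MC alone, Fos and Klf4 rose. Of all genes, 6.82% were called higher and 1.39% lower, beside 2 and 0 of the 9 members. The median difference was 0.54 for the members and 0.08 for all genes tested. Fos exceeded 3-MC alone by 2.20 ± 0.29, 4.61-fold (limma adjusted p = 8.04e-05), and Klf4 by 1.12 ± 0.30, 2.17-fold (limma adjusted p = 0.027). The call of Klf4 was lost without 3-MC rat 1, 3-MC rat 2, E2+3-MC rat 1 or E2+3-MC rat 3, with limma adjusted p values of 0.114, 0.121, 0.102 and 0.168, and its other probe set, at 0.89 ± 0.32, was not called (limma adjusted p = 0.11).

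The E2+3-MC rats lay wholly above the 3-MC rats for 7 of the 9 members, a separation in that direction that 25.7% of all genes showed. The 7 were Fos, Junb, Egr1, Atf3, Klf4, Klf6 and Myc. Of the 5 that were not called, Atf3 differed by 0.77, Myc by 0.72, Junb by 0.54, Klf6 by 0.52 and Egr1 by 0.16, with limma adjusted p values of 0.0682, 0.154, 0.12, 0.244 and 0.873. After quantile normalization Egr1 differed by 0.00. Vehicle rat 1 is not in this comparison but enters its estimate of the spread, and without it Atf3, Klf6, Junb and Myc were called with the same differences, at limma adjusted p values of 0.0017, 0.0213, 0.0216 and 0.00132. Without vehicle rat 1 the count over all genes went from 834 to 2176. Atf3 was also called without vehicle rat 3. On the quantile scale 6 members were called higher, and over all genes the split was 1385 higher and 1261 lower in place of 693 and 141. Jun (0.16) and Klf2 (-0.13) were not called under either scale, and Jun differed by -0.16 after quantile normalization.

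**Figure D4:**
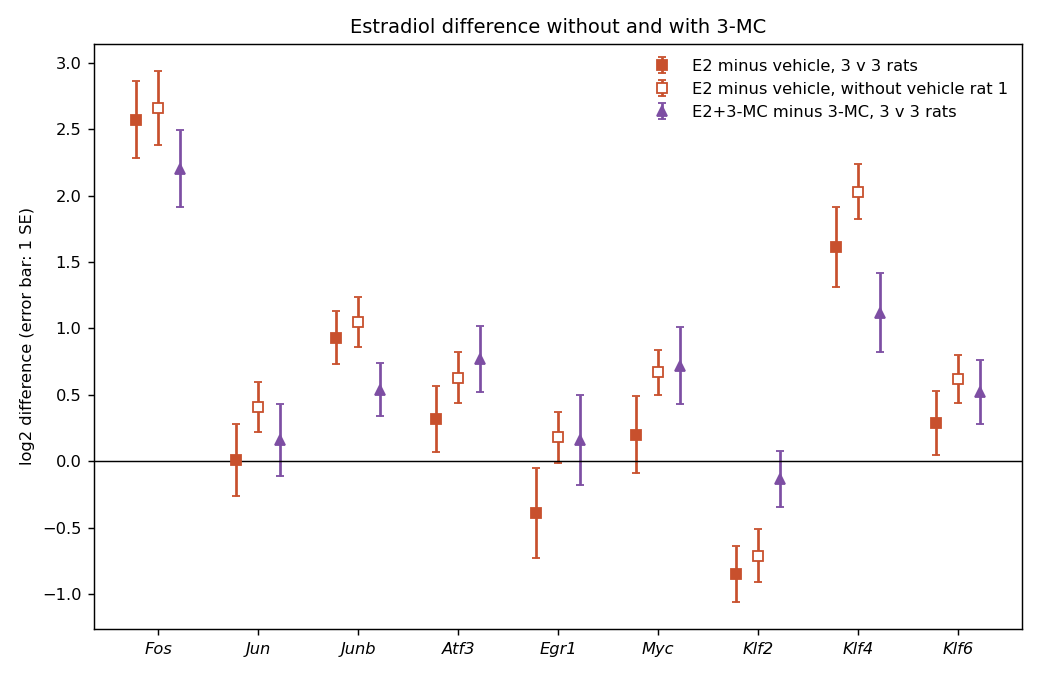
Log2 difference of each member, with error bars of 1 SE, for E2 minus vehicle over 3 against 3 rats (filled squares), the same without vehicle rat 1 (open squares), and E2+3-MC minus 3-MC over 3 against 3 rats (triangles). Fos and Klf4 are above 0 in all 3 estimates, and Klf2 is near -0.85 without 3-MC and -0.13 with it.

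Over both backgrounds together, 6 rats given estradiol against 6 without it, 5 members were called. Of all genes, 15.0% were called higher and 10.6% lower, beside 4 and 1 of the 9 members. Fos rose by 2.39 ± 0.21 (limma adjusted p = 1.74e-07), Klf4 by 1.37 ± 0.21 (0.000136), Junb by 0.74 ± 0.14 (0.000956) and Atf3 by 0.54 ± 0.17 (0.0295), and Klf2 fell by 0.49 (SE 0.15, adjusted p 0.0232). Of the 12 fits that left out 1 rat each, the Atf3 call was lost in 8, those without vehicle rat 2 or 3, E2 rat 1, any 3-MC rat, or E2+3-MC rat 2 or 3, where its limma adjusted p reached 0.0833. The Klf2 call was lost in 4, those without E2 rat 2, 3-MC rat 1 or 3, or E2+3-MC rat 1, where its limma adjusted p reached 0.0709. Klf6 (0.41) and Myc (0.46) missed the threshold at limma adjusted p values of 0.0961 and 0.107. Without vehicle rat 1 both were called, at 0.57 and 0.69 (limma adjusted p = 0.000468 and 3.54e-05), while the count over all genes went from 2600 to 4508. After quantile normalization both were also called, at 0.34 and 0.45 (limma adjusted p = 0.0041 and 0.0121). Jun had an interval from -0.32 to 0.49 and Egr1 from -0.61 to 0.39, and the sign of Jun turned after quantile normalization and that of Egr1 without vehicle rat 1. Fos and Junb were the only members whose 6 rats with estradiol all stood above the 6 without, a separation that 5.91% of all genes showed.

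With 3-MC alone, no member and no gene was called against vehicle (0% of all genes), and 82 genes, none of them a member, had an unadjusted limma p under 0.05. No member separated the 3-MC from the vehicle rats, beside 3.10% of all genes. The widest differences were -0.66 ± 0.34 for Egr1, -0.50 ± 0.29 for Myc and -0.27 ± 0.21 for Klf2, each with a limma adjusted p of 1. Without vehicle rat 1 those of Egr1 and Myc were -0.09 and -0.03. Klf6 differed by -0.19 and Klf4 by -0.18, which turned to 0.14 and 0.24 without vehicle rat 1. Atf3 differed by 0.03, which turned to -0.03 after quantile normalization and was 0.34 without vehicle rat 1. Jun went from -0.07 to 0.32 without that rat, and no member was called in that fit. For Fos the interval ran from -0.66 to 0.57, for Junb from -0.42 to 0.43 and for Jun from -0.65 to 0.51, and changes within these intervals were not excluded. Over the 4 groups, the 6 rats given 3-MC differed from the 6 without it by -0.43 ± 0.21 for Klf4, the widest of the 9, and the other members by -0.38 (Egr1) to 0.25 (Atf3). No member and no gene (0%) was called, and 6.07% of genes, none of them a member, had an unadjusted limma p under 0.05.

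Both compounds together, against vehicle, raised Fos alone among the members, by 2.16 ± 0.29 or 4.47-fold (limma adjusted p = 8.79e-05). Of all genes, 6.06% were called higher and 1.78% lower, and after quantile normalization 1296 were called higher and 1351 lower in place of 615 and 181. Klf4 differed by 0.94 ± 0.30, Atf3 by 0.79 ± 0.25 and Junb by 0.54 ± 0.20, at limma adjusted p values of 0.07, 0.0597 and 0.125. Klf4 was called without E2+3-MC rat 2 (1.18, limma adjusted p = 0.0274). Without vehicle rat 1, 6 members were called higher, while the count over all genes went from 796 to 2699. Klf6 differed by 0.33, Myc by 0.22, Klf2 by -0.41, Egr1 by -0.49 (0.07 without vehicle rat 1) and Jun by 0.09 (-0.06 after quantile normalization), none of them called. After quantile normalization Klf2 was called lower, at -0.48 (limma adjusted p = 0.0415). On that scale Junb (0.48), Klf4 (0.91) and Atf3 (0.76) were called higher, at limma adjusted p values of 0.00971, 0.0106 and 0.0207. Fos and Junb separated the groups upwards and Klf2 downwards, beside 10.7% and 7.18% of all genes.

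Adding 3-MC to estradiol, against estradiol alone, gave no called member and no called gene (0%), with 9.23% of genes and 1 member, Klf4, at an unadjusted limma p under 0.05. Klf4 differed by -0.68 ± 0.30 with an interval from -1.31 to -0.04 (limma adjusted p = 0.539), and its other probe set by -1.19 ± 0.32 (limma adjusted p = 0.486). In that dimmer probe set, E2+3-MC rat 2 had an intensity of 51.9 beside 148 and 166 in the other 2 rats of its group, within the range of the rats without estradiol. Junb differed by -0.39 ± 0.20, Fos by -0.41 ± 0.29, Atf3 by 0.47 ± 0.25 and Klf2 by 0.44 ± 0.21, none of them called. The Klf4 and Junb values of the E2+3-MC rats all lay below those of the E2 rats, which 1.17% of all genes did, and the Klf2 values all lay above, as for 16.7%. These shares are for the deposited values, where the median difference over all genes tested was 0.15. After quantile normalization, where that median was -0.01, the Klf4 and Junb values still did not overlap, while those of Klf2 did. The share of all genes without overlap on that scale was not counted, so no reading is drawn from it. Without E2+3-MC rat 2 the Fos difference was 0.03. Jun (0.07), Klf6 (0.04) and Myc (0.02) were not called and were negative after median centring, and Egr1 differed by -0.11.

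The interaction, which asks whether the estradiol response differed with 3-MC present, called no member and no gene, and 2.93% of genes had an unadjusted limma p under 0.05. Klf2 was the 1 member among them, with an interaction of 0.72 ± 0.30 and an interval from 0.08 to 1.35 (unadjusted p = 0.0288, limma adjusted p = 0.977). Its estradiol difference was -0.85 without 3-MC and -0.13 with it, and these were not shown to differ after adjustment over all genes. The interaction of Fos was -0.36 ± 0.41, with an interval from -1.23 to 0.51. That of Klf4 was -0.49, that of Junb -0.39, that of Atf3 0.45 and that of Myc 0.51. The interactions of Myc, Atf3 and Klf4 were 0.05, 0.14 and -0.91 without vehicle rat 1. Those of Egr1 (0.55), Klf6 (0.23) and Jun (0.14) turned to -0.02, -0.10 and -0.25 without vehicle rat 1.

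Other genes of the same pathways were read from lists chosen with earlier results of these data known, and their counts stand beside 8.70% of all genes higher and 9.44% lower in E2 against vehicle. Counts without vehicle rat 1 stand beside 3538 of all 10154 genes called in either direction. Those after quantile normalization stand beside 1928 of all genes called higher and 1972 lower. Among 15 tested partners of AP-1, Fosl2, a FOS-related subunit, rose by 0.80 ± 0.23 (limma adjusted p = 0.0216), and the ATF family genes Atf5 (-1.17) and Atf7 (-0.67) fell. Without vehicle rat 1 the counts were 2 higher and 4 lower. Fosl2 also rose with E2+3-MC against 3-MC, by 0.82 ± 0.23 (limma adjusted p = 0.0317). Among 37 other immediate early genes, 7 rose and 4 fell, while 15 were called higher and 4 lower without vehicle rat 1, and 11 and 7 after quantile normalization. The largest rises were those of Bhlhe40, a basic helix-loop-helix repressor of the circadian clock (2.04 ± 0.31), and Gadd45g, a growth arrest and stress gene (1.48 ± 0.23), which passed the limit on dim genes through the groups given estradiol. The largest falls were those of Id3 (-1.93 ± 0.30) and Id2 (-1.61 ± 0.26), which block basic helix-loop-helix factors from binding DNA. These 4 genes were also called in the same direction with E2+3-MC against 3-MC, where Bhlhe40 differed by 1.80, Gadd45g by 1.17 and Id3 by -1.15. The median of the 37 was 0.11, beside -0.11 over all genes tested.

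Genes that restrain or feed the signal were counted next. Among 17 feedback inhibitors of MAP kinase signalling, the ERK phosphatase gene Dusp6 rose (1.19 ± 0.32), and Dusp10, a phosphatase gene for p38 and JNK (-1.29 ± 0.30), Spred2 (-0.92 ± 0.22) and Spry1 (-0.85 ± 0.26), both inhibitors of RAS signalling, fell. Of 17 genes of the serum response factor, CREB and MAP kinase inputs, Crtc1, a CREB coactivator, was the one called, at -0.78 ± 0.24. Without vehicle rat 1 that call was lost and 4 input genes were called higher, while the inhibitors had 2 higher and 3 lower. After quantile normalization the inputs had 2 higher and 4 lower and the inhibitors 3 and 4. The median of -0.23 for the inhibitors and -0.24 for the inputs turned to 0.13 and 0.04 without that rat. With 3-MC present, Dusp6 was the only one called across both lists (1.08 ± 0.32), while 3 inputs were called higher and 3 inhibitors lower without vehicle rat 1. Over all genes the count was 2176 without that rat, in place of 834. The interaction was not called for any gene.

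Of 13 other Krüppel-like and related SP genes, none rose and 2 fell with E2. These were Klf15, known for metabolic control and glucocorticoid response (-1.15 ± 0.24), and Klf9, a progesterone receptor partner (-0.86 ± 0.24), and neither was called with E2+3-MC against 3-MC. Klf15 had a mean level under the limit for dim genes in the E2 group. The median of the 13 was -0.39, or -0.18 without vehicle rat 1, where 1 was called higher and 2 lower, and after quantile normalization 1 was called higher and 6 lower. In the MYC network, Mycn, the paralog of Myc, rose by 2.15 ± 0.21 (limma adjusted p = 1.12e-06) with E2 and by 1.74 ± 0.21 (limma adjusted p = 2.42e-05) with E2+3-MC against 3-MC, while Myc itself differed by 0.20 and 0.72 without a call. The mean log2 level of Mycn was 5.73 with vehicle and 6.03 with 3-MC, below the limit for dim genes, and 7.88 and 7.76 in the groups given estradiol. The other 8 tested genes of that network were not called, but the network had 3 higher without vehicle rat 1, and 3 higher and 3 lower after quantile normalization.

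Known target genes were counted in the same way. Of 11 tested AP-1 targets, 3 rose and 2 fell with E2. Timp1, an inhibitor of matrix metalloproteinases, rose by 2.80 ± 0.25, the integrin subunit gene Itgb6 by 2.52 ± 0.26 and the implantation cytokine gene Lif by 1.97 ± 0.25. Itgb6 and Lif, like Fos, passed the limit on dim genes through the groups given estradiol. The angiogenic factor gene Vegfa fell (-0.79), as did the gelatinase gene Mmp9 (-0.75), which is named after its value was seen. Timp1 (2.22), Itgb6 (1.98) and Lif (1.05) also rose with E2+3-MC against 3-MC, with Plau, the urokinase gene (0.95). Of 21 MYC targets, Ldha, a glycolytic enzyme gene (1.30 ± 0.29), and Eif4a1, a translation initiation helicase gene (0.96 ± 0.26), rose and Ccnd2, a cyclin gene, fell (-1.07 ± 0.29). None of 8 EGR1 targets was called, the widest being Tgfb1 at 0.53 and F3 at -0.48. None of 9 heat shock genes was called either, the widest being Hspa4l at -0.73 and Hspa8 at 0.44. The other 6 AP-1 and 18 MYC targets did not pass the test. These counts moved without vehicle rat 1, to 5 higher and 3 lower for the AP-1 targets, 6 and 1 for the MYC targets, and 2 and 0 for both the EGR1 targets and the heat shock genes. After quantile normalization they were 4 and 2, 4 and 3, 2 and 3, and 0 and 1 in the same order.

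The genes whose profile over the 12 arrays lay nearest to a member were found among 10153 genes by the root mean square difference of centred log2 values. For Fos they were Itgb6 (0.15), Enkur (0.154), Ctse (0.198), Timp1 (0.20) and Cd55 (0.21), where the Fos group means spanned 2.61. For Klf4 they were Fdps (0.148), Litaf (0.153), Ssr4 (0.156), Tspan17 (0.173) and Crb3 (0.173), against a span of 1.79. For Junb they were Aacs (0.0889), Slc35a2 (0.112), Stat5a (0.116), Ankrd54 (0.123) and Slc30a7 (0.134), against a span of 0.93. Itgb6, nearest to Fos, had group mean levels of 6.12, 8.64, 6.10 and 8.07 in the vehicle, E2, 3-MC and E2+3-MC groups. All these profiles share the arrays, including the wide spread of vehicle rat 1.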

How the data were processed

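Whole-uterus RNA from 12 ovariectomized rats was hybridised to 1 Affymetrix array each. The deposited values are linear intensities per probe set, which the authors made with PLIER in Affymetrix Expression Console, per the submitters' processing notes. Versions, genome build and normalization between arrays were not given in the sources used here. Of 29214 probe sets, 15310 carried 1 gene symbol, 323 several and 13581 none in the platform annotation, and 15303 of the single symbols matched RefSeq genes of GRCr8. The brightest probe set stood for a gene, giving 14506 genes. Genes whose mean over the 12 arrays was in the dimmest 30% were left out, leaving 10154. Values were taken as log2(intensity + 16) from the deposited intensities without further normalization and fitted with limma 3.58.1 in R 4.3.3, 1 mean per group, 8 residual and 8.92 prior degrees of freedom, two-sided. The number of arrays, 3 rats per group, limits the precision, and the median SE of a difference of E2 from vehicle was 0.22. The fit was also run on simulated data with independent noise for each gene and array. Those data lacked the wider spread of vehicle rat 1, so that run does not bear on it.

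All 9 measured members were named by rule, whatever their result. From each other list, up to 4 called genes with the largest difference were named, or up to 2 where none was called, and 5 nearest profiles for the 3 members with the widest group means. Members, lists and tests were chosen with earlier results of these data known. Promoter letters came from RefSeq, build GRCr8, with both strands searched. Alternatives were quantile normalization, median centring, offsets of 1 and 64, no filter or a 50% filter, the mean of probe sets, a rat-number block, only the groups compared, a variance trend with robust estimation, array weights, and leaving out each rat. After the data were seen, quantile normalization without vehicle rat 1 and without E2+3-MC rat 2 were added.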

Additional observations from a re-analysis of the deposited data

How the results depend on the processing

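Member values were counted as the same in 1618 of 1749 comparisons with an alternative. These kept their call, and also their direction, except for uncalled values that changed sign by less than the SE of the main fit. A call was gained in 81 and lost in 18, and no called value reversed. Another 32 values, not called in either fit, changed sign by at least that SE. The causes of these changes were not tested. Below, "both" stands for the E2+3-MC group, and counts are of all genes called and, where stated, of members called.

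Quantile normalization called 3900 genes between E2 and vehicle. Between both and vehicle it called 2647 genes and 5 members, between both and E2 2 genes, and between both and 3-MC 2646 genes and 6 members. It called 4886 genes for the estradiol main effect (2358 higher, 2528 lower) and 1 for that of 3-MC. Median centring called 1 gene between both and E2, and 4 members between both and 3-MC. The offset of 1 called 2 members between both and vehicle. Leaving out the dimmest 50%, which removes Atf3, Fos and Klf2, called 1183 genes and 2 members between E2 and vehicle, 0 members between both and vehicle, 1 gene between both and E2, 1 member between both and 3-MC, and 2 members for the estradiol main effect. Fitting only the groups compared called 961 genes between E2 and vehicle, 296 between both and vehicle, 144 between both and E2, and 2270 with 6 members between both and 3-MC. It could not be run for the interaction and main effects, which use all 4 groups. The variance trend with robust estimation called 3 members between both and vehicle and 3 genes between both and E2. Array weights came from the gene-by-gene estimator, since the REML estimate did not converge. They called 6079 genes and 8 members between E2 and vehicle, 4 genes between 3-MC and vehicle, 4405 and 6 members between both and vehicle, 4987 and 4 members between both and E2, and 3776 and 6 members between both and 3-MC. They called 927 genes and 1 member for the interaction, 6376 genes for the estradiol main effect, and 3989 genes and 1 member for that of 3-MC.

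Leaving out 1 rat called 984 to 3538 genes and 3 to 7 members between E2 and vehicle, 0 to 1 genes between 3-MC and vehicle, and 438 to 2699 genes and 1 to 6 members between both and vehicle. It called 0 to 117 genes between both and E2, 413 to 2176 genes and 1 to 6 members between both and 3-MC, 1926 to 4508 genes and 3 to 7 members for the estradiol main effect, and 0 to 1 genes for that of 3-MC. The highest counts above 1 were all without vehicle rat 1. Quantile normalization without vehicle rat 1 called 4679 genes and 7 members between E2 and vehicle, 3337 and 6 members between both and vehicle, 19 genes between both and E2, 3455 and 6 members between both and 3-MC, and 5623 and 1 genes for the main effects of estradiol and 3-MC. Quantile normalization without E2+3-MC rat 2 called 4009 genes between E2 and vehicle, 2625 and 4 members between both and vehicle, 1 gene between both and E2, 2656 between both and 3-MC, and 4948 and 1 for the same main effects.

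Nothing in the labels ties rats of one number together, so rats were treated as unpaired. In none of the 5 comparisons of 2 groups did all 3 same-numbered pairs correlate above 0.1. The E2 and 3-MC groups, which were not compared with each other, did so, at 0.24, 0.16 and 0.17 for rats 1, 2 and 3. Deviations of same-numbered rats correlated at -0.27 to 0.24 (median 0.08, 18 pairs), those of other pairs at -0.44 to 0.39 (median -0.06, 36 pairs). As a hint from the data, all 6 rats of the 3-MC and E2+3-MC groups correlated best with their own number. So did every rat of the E2 and 3-MC groups, 4 of 6 of the E2 and E2+3-MC groups and 0 in each comparison with vehicle. With the rat number as a replicate block, 3 members (Atf3, Klf4 and Fos) instead of 1 were called between both and vehicle. All-gene counts under the block were 2545 between E2 and vehicle, 1089 between both and vehicle, 1140 between both and 3-MC and 3192 for the estradiol main effect, with 0 in the other 4 comparisons.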
